A study of Mus musculus with 12 samples.

Results

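The libraries of both ovariectomy groups were pooled as 1 side, 8 libraries in all, and compared with the 4 libraries of mice that had the injury alone. All 12 libraries of the series and every gene of the expected-count table entered, and 17820 of its 57180 genes passed the low-count filter and were tested. Female C57BL/6J wild-type mice received a clip-compression injury of the spinal cord at T9-T10, and the lesion with about 0.5 cm of cord on either side of it was taken 7 days later for paired-end RNA sequencing. SCI7 mice had this injury and no ovariectomy (4 libraries). OVX2_SCI7 mice had both ovaries removed 2 weeks before the same injury (4 libraries), and OVX8_SCI7 mice 8 weeks before it (4 libraries).

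Each group holds 4 biological replicates per the labels, and all share 1 batch label. The comparison has limits set by its design. Every animal was injured, no sham operation was analysed here, and an operation, the loss of ovarian hormones and the delay after the operation cannot be told apart. The labels give an age of 8 weeks for every mouse without the time point it refers to. An age of 8 weeks at collection is not possible for OVX8_SCI7, so the mice of the 3 groups may also differ in age. The tissue is a whole segment of cord, in which fewer cells of a type and less RNA per cell cannot be told apart.

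The ovaries supply most of the oestrogen and progesterone in the blood of a female mouse. Both hormones act through nuclear receptors that are present in glia, neurons and immune cells, and oestrogen is known to restrain parts of the inflammatory response of microglia. By 7 days after a contusion or compression, the cord lesion is filled with microglia and blood-derived macrophages that take up myelin debris and its lipids, astrocytes have become reactive at the border, and lymphocytes have begun to enter. Interferons, released by immune and glial cells, switch on a set of antiviral genes and the class I antigen presentation genes.

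Total counts were 18222729 to 20524261 in SCI7 and 18279508 to 31781695 after ovariectomy. The libraries also differed as a whole. In each library the Spearman rho across 14363 genes between transcript GC content (the share of G and C bases) and the gene's level relative to its mean described the library's GC trend. It was -0.652 ± 0.163 (SD, n = 4) in SCI7 and 0.415 ± 0.399 (SD, n = 8) after ovariectomy (exact permutation test, two-sided, p = 0.00202, the smallest this design allows, adjusted p = 0.0121 over 6 library measures). OVX2_SCI7 replicate 1 lay at -0.418, close to the SCI7 libraries, whose highest value was -0.4996. Mitochondrially encoded transcripts took 7.63 ± 1.80% of counts (SD, n = 4) in SCI7 and 3.48 ± 2.00% (SD, n = 8) after ovariectomy (exact permutation test, p = 0.00606, adjusted p = 0.0121), with 8.33% in OVX2_SCI7 replicate 1. The share of counts on pseudogenes was 2.84 ± 0.718% against 1.47 ± 0.563% (SD, n = 4 and 8; exact permutation test, p = 0.00606, adjusted p = 0.0121). The part of these library differences in the gene results below was not tested beyond the fits that carry a GC and length offset.

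With 8 libraries against 4, 5870 genes (32.9% of those tested) passed edgeR's robust quasi-likelihood test at a Benjamini-Hochberg adjusted p below 0.05, and are referred to as called. Of them 2855 (16%) were higher and 3015 (16.9%) lower after ovariectomy, with median log2 fold changes of 0.72 and -0.71. The median over all genes tested was 0.03. A stricter description asks that the lowest of 8 libraries lie above the highest of 4, or the reverse, in CPM (counts scaled to library size with TMM factors); such a gene is referred to as separated. All 8 ovariectomy libraries lay above all 4 SCI7 libraries for 769 genes (4.32%) and below them for 974 (5.47%). Both called and separated were 735 genes upward (4.12%) and 950 downward (5.33%).

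The called genes were unevenly spread over GC content. Median transcript GC content was 56.9% in genes called higher, 42.2% in genes called lower and 49.8% in all genes tested. Among 5 equal bins of the genes used for the GC trend, 63.1% were called lower and 0.174% higher in the bin of lowest GC content. In the bin of highest GC content 55.3% were called higher and none lower. A second fit therefore gave each library an offset for its own trend on GC content and transcript length. Of 17448 genes with these properties it called 23 higher (0.132%) and 13 lower (0.0745%), and 28 of these 36 were also called without the offset. DESeq2 with the same offset called 563 of the 17448 higher and 429 lower. On the offset scale all 8 libraries lay above all 4 for 274 genes (1.57%) and below them for 195 (1.12%). Separated on both scales were 99 genes upward and 112 downward. The offset removes whatever follows GC content and length, technical or not, so values under it are given below for most lists and for many of the genes.

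**Figure D1:**
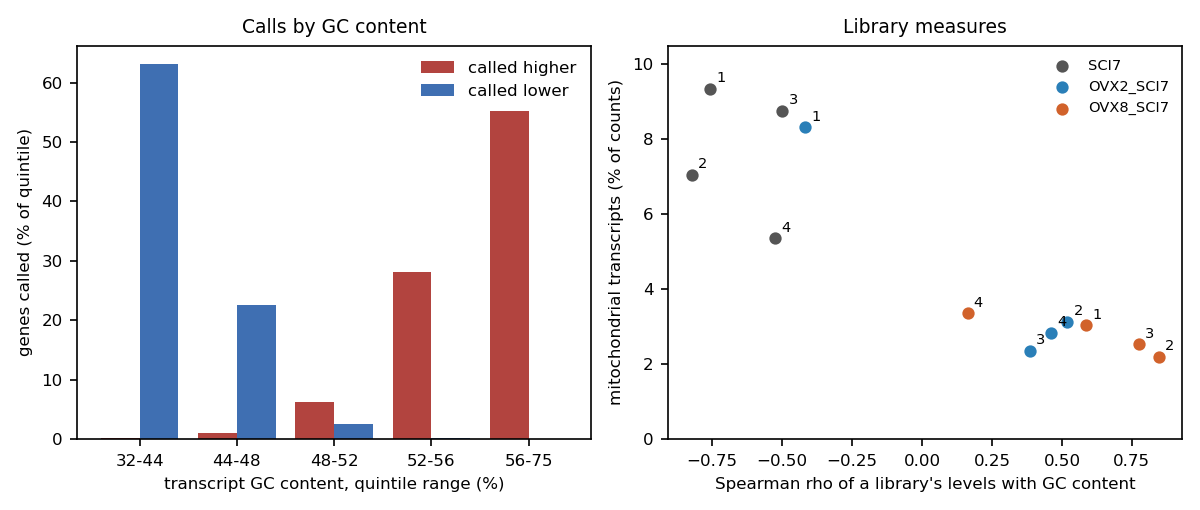
Left, percent of genes called higher (red) or lower (blue) after ovariectomy in 5 equal bins of transcript GC content. Right, each library by its GC trend (Spearman rho, x axis) and its share of mitochondrially encoded counts (%, y axis), numbered by replicate. Calls run from 63.1% lower in the first bin to 55.3% higher in the last, and OVX2_SCI7 replicate 1 lies beside the 4 SCI7 libraries with 8.33% mitochondrial counts.

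Whether the 2 intervals differ was tested in a fit with 3 groups. No gene was called between OVX8_SCI7 and OVX2_SCI7 by edgeR (0%, smallest adjusted p = 0.999), 393 genes had an unadjusted p below 0.05 (2.21% of those tested), DESeq2 called 6 and limma-voom 0. The median size of the log2 difference was 0.16 between the intervals and 0.45 between the pooled ovariectomy libraries and SCI7. Where both intervals are given below, they are set against the same 4 SCI7 libraries. OVX2_SCI7 replicate 1 was the library that most often kept a called gene from separating: 2770 of the 4185 called genes that did not separate did so once it was left out. The same number was 1065 without SCI7 replicate 4 and 535 without SCI7 replicate 3. Genes called numbered 8474 of 18057 tested without OVX2_SCI7 replicate 1, and 3441, 2732 and 3832 without SCI7 replicates 1, 2 and 3. These totals are the background for list counts given below with 1 of these libraries left out. With all 12 libraries DESeq2 called 7052 of 17820 genes, limma-voom 5757 and limma-voom with quality weights 11058. They are the background for list counts by those tests.

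**Figure D2:**
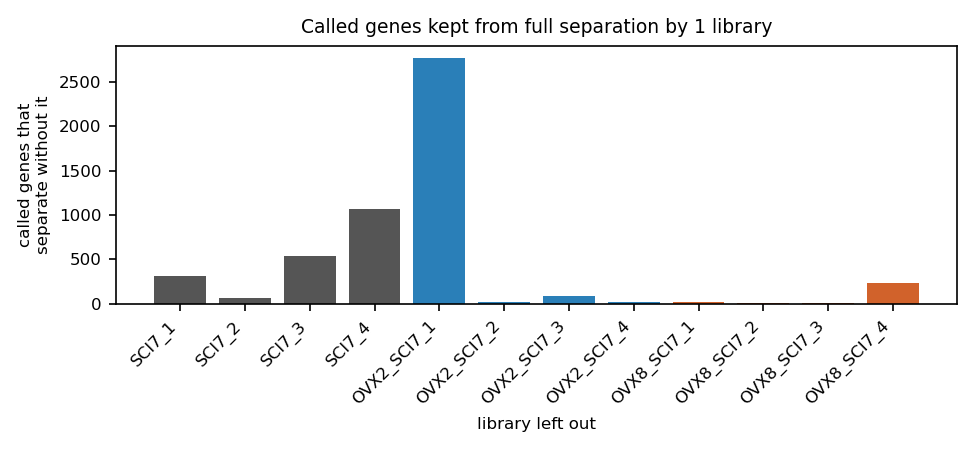
For each library (x axis), the number of the 4185 called but not separated genes that separate when it is left out (y axis, genes; grey SCI7, blue OVX2_SCI7, orange OVX8_SCI7). The bar of OVX2_SCI7 replicate 1 stands at 2770 and the next, SCI7 replicate 4, at 1065.

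Genes of the type I interferon response, which encode antiviral sensors and effectors, were higher after ovariectomy in both intervals. Of 28 listed and tested, 16 rose and none fell, beside 16% called higher among all genes, and 11 separated. The list's median log2 fold change was 0.65, with 0.82 for OVX2_SCI7 and 0.50 for OVX8_SCI7. Its summed level was 369 to 574 CPM in SCI7 and 571 to 926 CPM after ovariectomy. The median transcript GC content of this list, 49.1%, lies near that of all genes. Under the offset the median was 0.76, all 28 members were positive, 11 separated and edgeR called 2. DESeq2 with the offset called 16 of 28 higher, beside 563 of all 17448 genes in that fit.

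Oas1a, an oligoadenylate synthetase that senses double-stranded RNA, was at 6.28, 4.99, 3.27 and 6.71 CPM in SCI7 and ranged from 9.64 to 23.3 CPM after ovariectomy, with a median of 14.2. The lowest ovariectomy library was 1.44-fold above the highest SCI7 library, and the gene rose in the pooled comparison (log2 fold change 1.56, SE 0.28, edgeR adjusted p = 0.00679; 1.66 for OVX2_SCI7 and 1.44 for OVX8_SCI7). It was called under the offset too, at 1.29 with an edgeR adjusted p of 0.0417. Oas1a has close paralogues on chromosome 5. The expected counts, which RSEM estimated, could split reads among them, so its values are uncertain.

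Oas2, of the same enzyme family, was at 2.00, 3.11, 2.78 and 2.37 CPM in SCI7 and between 4.40 and 10.4 CPM (median 7.30) after ovariectomy, without overlap (log2 fold change 1.46, SE 0.27, edgeR adjusted p = 0.00679). The 4 OVX2_SCI7 libraries held the 4 highest values. Irf7, the transcription factor that amplifies interferon production, was at 11.7, 8.96, 9.53 and 6.56 CPM in SCI7 and between 12 and 33.6 CPM (median 22) after ovariectomy. It rose by a log2 fold change of 1.29 (SE 0.26, edgeR adjusted p = 0.00728), and the sides were 1.03-fold apart at their nearest libraries. Ifi27, an interferon-induced membrane protein, was at 37.5, 33.5, 27.1 and 37.8 CPM in SCI7 and between 50.8 and 88.9 CPM (median 60.9) after ovariectomy. Its log2 fold change was 0.95 (SE 0.18, edgeR adjusted p = 0.00679) and 0.59 under the offset (edgeR adjusted p = 0.0417). Besides these 4, Oas3, Oasl2, Irf9, Stat2, Mx2, Zbp1 and Xaf1 were called and separated, and Oasl1, Isg15, Mx1, Usp18 and Bst2 were called without separating.

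Ifi27l2a, another interferon-induced gene outside that list, had the largest fold change of the called and separated higher genes that averaged 5 CPM or more, predicted genes and pseudogenes aside. It was at 3.22, 3.17, 2.34 and 1.82 CPM in SCI7 and between 4.15 and 24.1 CPM (median 9.96) after ovariectomy (log2 fold change 2.08, SE 0.41, edgeR adjusted p = 0.00712). Its lowest ovariectomy library was OVX8_SCI7 replicate 4 and its highest OVX2_SCI7 replicate 4, with interval values of 2.40 and 1.67 for OVX2_SCI7 and OVX8_SCI7. Lgals3bp, a secreted glycoprotein that binds galectins and is induced by interferon, was at 92.3, 92.1, 49.1 and 89.2 CPM in SCI7 and between 153 and 339 CPM (median 250.1) after ovariectomy. The nearest libraries of the sides were 1.66-fold apart. It rose by a log2 fold change of 1.63 (SE 0.23, edgeR adjusted p = 0.00679), and by 1.13 under the offset (edgeR adjusted p = 0.0417).

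The interferon-inducible GTPases of the Gbp and Irg families, which attack the membranes of vacuoles that hold pathogens, gave counts that depended on the fit. Of 15 tested, 3 rose (Gbp2, Gbp3 and Igtp), close to the background share of 16%, and only Gbp2 separated. The list's median was 0.48, with 0.71 for OVX2_SCI7 and 0.16 for OVX8_SCI7; none of its members was called between the intervals by edgeR. Its count was 1 without SCI7 replicate 1, 2 or 4 or OVX2_SCI7 replicate 3, and 0 without SCI7 replicate 3. Transcripts of this list are poor in GC (median 45.2%), and under the offset its median was 0.79, 9 members separated and edgeR called Gbp3 alone. DESeq2 with the offset called 10 of 15 higher, beside 563 of all 17448 genes in that fit. Gbp3 was at 21.3, 16.2, 11.5 and 14.7 CPM in SCI7 and between 18.9 and 32.6 CPM (median 25.9) after ovariectomy. In deposited counts SCI7 replicate 1 overlapped the ovariectomy side (log2 fold change 0.66, SE 0.18, edgeR adjusted p = 0.0164), and on the offset scale the sides did not overlap (0.95, edgeR adjusted p = 0.0417).

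Most genes of class I antigen presentation rose. The list holds the class I heavy chains, which present peptides from inside the cell to CD8 T cells, with the transporters, chaperones and immunoproteasome subunits that supply the peptides. Of 18 members 16 rose and none fell, beside 16% called higher among all genes. Of the list 6 separated (H2-K1, H2-D1, H2-Q4, H2-Q6, H2-Q7 and Nlrc5), and B2m and Erap1 were not called. The median log2 fold change was 1.31, with 1.43 for OVX2_SCI7 and 1.23 for OVX8_SCI7. Its summed level was 561 to 1143 CPM in SCI7 and 1101 to 3380 CPM after ovariectomy. Leaving out 1 library at a time, 12 to 16 members rose. The median transcript GC content was 55.5%, and under the offset the median was 0.93, 18 of 18 were positive, 9 separated and edgeR called 1. DESeq2 with the offset called 12 of 18 higher, beside 563 of all 17448 genes in that fit.

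H2-K1, a classical class I heavy chain, was at 94.8, 108, 56.6 and 118 CPM in SCI7 and between 132 and 525 CPM (median 263) after ovariectomy, and the lowest of the 8 was OVX2_SCI7 replicate 1. It rose by a log2 fold change of 1.73 (SE 0.35, edgeR adjusted p = 0.00722), and its value under the offset was 1.12 (edgeR adjusted p = 0.0649). H2-D1, the other classical heavy chain, was at 208, 224, 113 and 251 CPM in SCI7 and between 257 and 1152 CPM (median 548) after ovariectomy. The sides did not overlap but came within 1.02-fold of each other (log2 fold change 1.66, SE 0.36, edgeR adjusted p = 0.00793). Reads of H2-Q4, H2-Q6 and H2-Q7, heavy chains of the Qa group, could be split among near-identical copies, so their values are uncertain. H2-Q7 was at 3.17, 5.37, 4.14 and 5.65 CPM in SCI7 and between 8.63 and 27.2 CPM (median 15.3) after ovariectomy (log2 fold change 1.80, SE 0.30, edgeR adjusted p = 0.00679). H2-Q6 and H2-Q4 rose by log2 fold changes of 1.79 and 1.46, also without overlap.

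B2m, the light chain shared by all class I molecules, was chosen after its values were seen because it was not called in deposited counts and was called under the offset. It was at 549, 432, 208 and 373 CPM in SCI7 and between 385 and 867 CPM (median 473) after ovariectomy, and the sides overlapped (log2 fold change 0.53, SE 0.29, edgeR adjusted p = 0.169). Its transcript is poor in GC (41.2%). On the offset scale the value was 1.05 with an edgeR adjusted p of 0.0467 and no overlap.

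**Figure D3:**
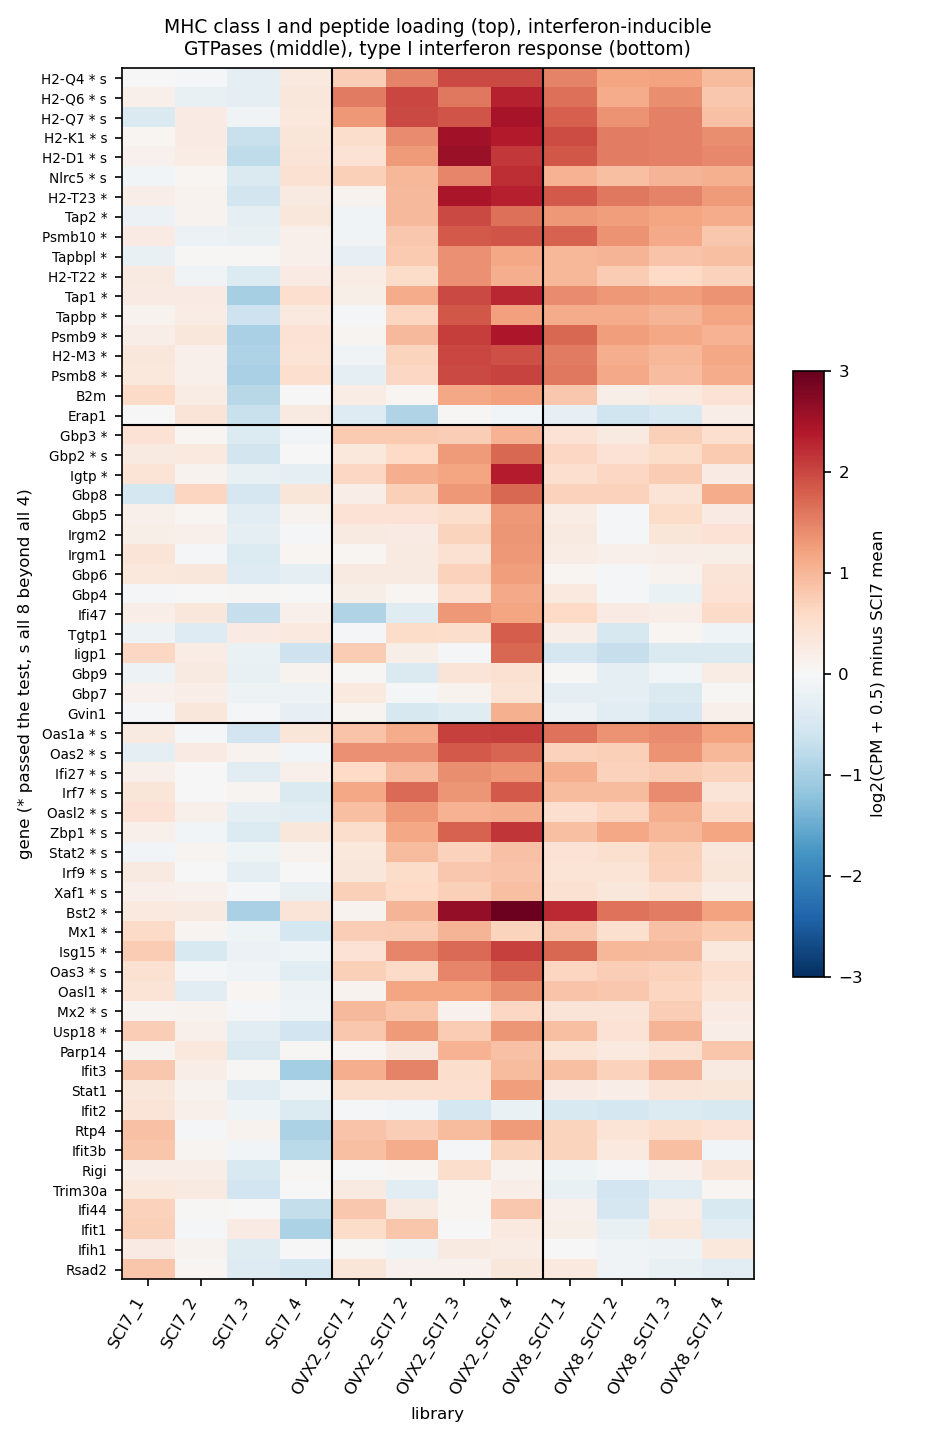
Heat map of 61 genes (rows) in 12 libraries (columns), colour giving log2(CPM + 0.5) minus the SCI7 mean; a star marks genes called and an s genes with all 8 libraries beyond all 4. Class I genes (top) are red in most ovariectomy libraries and palest in OVX2_SCI7 replicate 1, GTPases (middle) are darkest in OVX2_SCI7 replicate 4, and 16 of the 28 interferon genes (bottom) carry a star.

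Class II genes, which present extracellular peptides to CD4 T cells, all rose: 8 of 8 were called, beside 16% called higher among all genes. Their median log2 fold change was 1.41 (1.47 and 1.33 for OVX2_SCI7 and OVX8_SCI7). Only H2-Oa, which tunes peptide loading in endosomes, separated, at 0.950, 1.02, 0.545 and 0.454 CPM in SCI7 and between 1.59 and 2.18 CPM (median 1.84) after ovariectomy (log2 fold change 1.31, SE 0.24, edgeR adjusted p = 0.00686). The SCI7 levels of H2-Oa alone would not have passed the low-count filter, so its call and separation are no separate support for a rise. Cd74, the invariant chain, was at 52.9, 46.5, 11.8 and 46.8 CPM in SCI7 and between 46.1 and 199.6 CPM (median 122) after ovariectomy (log2 fold change 1.60, SE 0.41, edgeR adjusted p = 0.0136). SCI7 replicate 3 was the lowest of all, and OVX2_SCI7 replicate 1 lay inside the SCI7 range. The count was 5 without SCI7 replicate 1, 2 or 3. Under the offset the median was 1.03, no member separated and edgeR called none. DESeq2 with the offset called 4 higher, beside 563 of all 17448 genes in that fit.

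Complement genes, whose products tag debris and synapses for removal, followed in part. Of 16 tested 7 rose (C1qa, C1qb, C1qc, C2, C3, C4b and Cfb), none fell and only C4b separated, beside 16% called higher among all genes. The list's median was 0.71, and 0.63 under the offset, where no member separated and edgeR and DESeq2 each called 0. C4b was at 265, 314, 327 and 358 CPM in SCI7 and between 415 and 597 CPM (median 469) after ovariectomy (log2 fold change 0.59, SE 0.14, edgeR adjusted p = 0.00998; 0.19 under the offset). C1qa was at 273, 251, 92.3 and 349 CPM in SCI7 and between 198 and 1035 CPM (median 655) after ovariectomy, and only OVX2_SCI7 replicate 1 overlapped SCI7 (log2 fold change 1.42, SE 0.43, edgeR adjusted p = 0.0251). The count of 7 was 1 without SCI7 replicate 1 or 2, and 2 without SCI7 replicate 3. Without OVX2_SCI7 replicate 1, 10 rose and 1 fell.

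Lymphocyte transcripts were scarce. Of 14 T and NK cell markers 7 passed the filter and 2 were called higher, beside 16% among all genes. The sum of the 14 was 4.74 to 7.86 CPM in SCI7 and 7.91 to 18.3 CPM after ovariectomy. Cd8a, which marks cytotoxic T cells, was at 0.106, 0, 0.0545 and 0.0504 CPM in SCI7, each under the 0.146 to 0.165 CPM that 3 counts make in those libraries. After ovariectomy it ranged from 0.217 to 1.23 CPM (median 0.786), above SCI7 in 8 of 8 libraries (edgeR adjusted p = 0.00679, and 0.0417 under the offset), and no fold is given against such counts. Ikzf3, a lymphocyte transcription factor, was at 0.317, 0.107, 0.163 and 0.101 CPM in SCI7 and between 0.349 and 0.984 CPM (median 0.725) after ovariectomy (edgeR adjusted p = 0.00722), without overlap. Cd8a and Ikzf3 passed the low-count filter only through the ovariectomy libraries. The filter thus favoured higher genes at this level, so these 2 calls are no separate support for a rise. Cd3e and Cd4 were not called. Without OVX2_SCI7 replicate 1, 8 of the markers were tested, of which 4 rose and 1 fell. Of 5 tested B and plasma cell markers Cd79b and Ighm rose, beside the same 16%, and 1 marker rose without SCI7 replicate 3. The floor of 3 counts covers counting error only.

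Of 17 chemokines and receptors tested 3 rose, Ccl5, Cxcl9 and Cxcl16, again near the background share of 16%. Ccl5, which attracts T cells, was at 0.791, 0.805, 0.109 and 0.454 CPM in SCI7 and between 0.863 and 3.75 CPM (median 1.89) after ovariectomy (log2 fold change 1.90, SE 0.52, edgeR adjusted p = 0.0176), with the sides 1.07-fold apart. Its SCI7 levels alone would not have passed the low-count filter, so its call and separation are no separate support for a rise. In SCI7 replicate 3 it lay under the 0.165 CPM that 3 counts make in that library. Cxcl10, a further interferon-induced attractant of T cells, was not called (log2 fold change 0.97, SE 0.36, edgeR adjusted p = 0.0513). The count of 3 was 1 without SCI7 replicate 2, 3 or 4 or OVX2_SCI7 replicate 3 or 4. The list's median was 0.44, and 0.83 under the offset.

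Microglia and macrophage genes varied widely between libraries. Of 18 markers of phagocytic lesion microglia and macrophages 4 rose (Apoe, Trem2, Cst7 and Axl), near the 16% called higher among all genes, none fell and only Cst7 separated, with a median of 0.93 and 0.76 under the offset. Their sum was 5960 to 31016 CPM in SCI7 and 9528 to 56562 CPM after ovariectomy, lowest in SCI7 replicate 3 and, among the 8, in OVX2_SCI7 replicate 1. The count was 7 without OVX2_SCI7 replicate 1 and 2 without SCI7 replicate 1, 2 or 3. Of 14 markers of infiltrating monocytes and macrophages edgeR called 0, with 0 at an unadjusted p below 0.05 and 0 by DESeq2 and limma-voom, and 1 lower by limma-voom with quality weights. Their sums were 697 to 6018 CPM and 1153 to 11942 CPM. Of 11 neutrophil markers tested edgeR called 0, with 1 at an unadjusted p below 0.05, 0 by DESeq2 and limma-voom and 1 with quality weights. Without OVX2_SCI7 replicate 4 each list had 1 member that fell, and the neutrophil list also without OVX2_SCI7 replicate 3. The part of these cells in the results on class I, class II, complement and lipid genes was not tested.

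Apoe, the lipid carrier of the nervous system, was at 3533, 3632, 1787 and 4642 CPM in SCI7 and between 3044 and 22239 CPM (median 11196) after ovariectomy. All ovariectomy libraries except OVX2_SCI7 replicate 1 lay above SCI7 (log2 fold change 1.80, SE 0.46, edgeR adjusted p = 0.0132), and the value under the offset was 1.00 (edgeR adjusted p = 0.166). Cst7, an inhibitor of lysosomal proteases, was at 15.9, 11.2, 4.30 and 10.4 CPM in SCI7 and between 17.9 and 30.5 CPM (median 18.9) after ovariectomy (log2 fold change 1.00, SE 0.28, edgeR adjusted p = 0.0173), without overlap. Trem2, a lipid receptor of microglia, was at 101, 107, 28.3 and 132 CPM in SCI7 and between 66.1 and 445 CPM (median 269) after ovariectomy (log2 fold change 1.61, SE 0.50, edgeR adjusted p = 0.0291), and OVX2_SCI7 replicate 1 alone overlapped SCI7.

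Genes of resting microglia were called in both directions. Of 12, Selplg, Csf1r and Tmem119 rose and P2ry12, P2ry13 and Gpr34 fell, beside 16% higher and 16.9% lower among all genes, and the list's median was 0.03. Selplg, an adhesion ligand, was at 56.6, 47.1, 36.2 and 57 CPM in SCI7 and between 66.0 and 125 CPM (median 104) after ovariectomy (log2 fold change 1.08, SE 0.18, edgeR adjusted p = 0.00679), without overlap. P2ry12, the receptor by which microglia sense nucleotides, was at 99.0, 70.9, 67.5 and 54.6 CPM in SCI7 and between 20.5 and 67.7 CPM (median 33.6) after ovariectomy (log2 fold change -1.04, SE 0.26, edgeR adjusted p = 0.0126). The risers have GC-rich transcripts (Selplg 58.6%) and P2ry12 a GC-poor one (38.6%), and under the offset their values were 0.41 and -0.21. Without SCI7 replicate 1 none fell, and without SCI7 replicate 2 only 1 did.

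Lipid droplet genes were led by Plin4, a perilipin that coats droplets. It was at 6.12, 17.2, 12.6 and 8.57 CPM in SCI7 and between 26.7 and 70.8 CPM (median 35.4) after ovariectomy, and the nearest libraries were 1.55-fold apart. It rose by a log2 fold change of 1.90 (SE 0.33, edgeR adjusted p = 0.00679), with 1.47 for OVX2_SCI7, 2.24 for OVX8_SCI7 and 1.45 under the offset (edgeR adjusted p = 0.058). Of 12 tested genes of perilipins and droplet enzymes, Plin3, Plin4, Pnpla2, Lipe and G0s2 rose and Abhd5 fell, beside 16% higher and 16.9% lower among all genes. The list's median was 0.63, and 0.33 under the offset, where 7 of 12 members were positive and edgeR called 0. DESeq2 with the offset called 3 higher and 2 lower, beside 563 and 429 of all 17448 genes in that fit. Lipe, the hormone-sensitive lipase, was at 11.7, 12.6, 14.9 and 17.1 CPM in SCI7 and between 18.1 and 29.1 CPM (median 23.5) after ovariectomy (log2 fold change 0.77, SE 0.16, edgeR adjusted p = 0.00749). Abhd5, the activator of the lipase Pnpla2, was at 63.7, 57.6, 46.7 and 50.1 CPM in SCI7 and between 32.1 and 42.9 CPM (median 37.0) after ovariectomy (log2 fold change -0.57, SE 0.12, edgeR adjusted p = 0.00732). Plin4 and Lipe are also adipocyte genes; of 10 adipocyte markers 3 passed the filter and edgeR called 0, with 1 lower at an unadjusted p below 0.05, 0 by DESeq2 and limma-voom and 1 higher with quality weights. With 1 library left out 1 marker fell, except without SCI7 replicate 3 or 4, where none did. The sum of the 10 was 12.7 to 72.7 CPM in SCI7 and 4.87 to 48.4 CPM after ovariectomy.

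Of 13 genes of lipid uptake and efflux 5 rose, the cholesterol exporter Abcg1, the receptor Lrp1, the oxysterol-sensing receptors Nr1h2 and Nr1h3 and the lipid transfer protein Pltp, beside 16% called higher among all genes. The list's median was 0.76 (0.49 under the offset). Nr1h2 was at 34.1, 33.4, 29.6 and 35.3 CPM in SCI7 and between 37.2 and 82.6 CPM (median 71.1) after ovariectomy (log2 fold change 1.02, SE 0.18, edgeR adjusted p = 0.00679), without overlap. The count was 2 without SCI7 replicate 1, 2 or 3, and 8 without OVX2_SCI7 replicate 1. On the other side of the pathway, 5 of 16 cholesterol synthesis enzymes fell, among them Msmo1 and Idi1, and none rose, beside 16.9% called lower among all genes, and none separated. The list's median was -0.47, with -0.26 for OVX2_SCI7 and -0.66 for OVX8_SCI7, and -0.32 under the offset. Msmo1, a sterol oxidase, was at 111, 82.1, 99.9 and 56.4 CPM in SCI7 and between 27.5 and 89.9 CPM (median 35.9) after ovariectomy (log2 fold change -0.996, SE 0.29, edgeR adjusted p = 0.0229). No enzyme fell without SCI7 replicate 1, 2 or 3, and 8 fell without OVX2_SCI7 replicate 1. Fewer fell without most other libraries, with 1 without OVX2_SCI7 replicate 4 or OVX8_SCI7 replicate 1, 2 or 3, and 2 without OVX2_SCI7 replicate 3 or OVX8_SCI7 replicate 4; in the last case, and without OVX2_SCI7 replicate 1, 1 rose.

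Hormone-related genes were mostly not called. Esr1, the oestrogen receptor alpha, was at 8.13, 12.1, 11.7 and 5.55 CPM in SCI7 and between 5.95 and 10.1 CPM (median 7.29) after ovariectomy (log2 fold change -0.31, SE 0.20, edgeR adjusted p = 0.254). Pgr, the progesterone receptor, was at 14.2, 11.9, 19.8 and 6.25 CPM in SCI7 and between 2.78 and 15.4 CPM (median 8.06) after ovariectomy (log2 fold change -0.68, SE 0.36, edgeR adjusted p = 0.157). Both overlapped between the sides, and Esr2, the receptor beta, had 0 to 10 counts per library and was under the filter. Of 10 tested oestrogen receptors and responsive genes Igfbp4 rose and Nrip1 fell, below the 16% and 16.9% among all genes. Nrip1, a co-repressor of nuclear receptors, was at 41.3, 45.5, 42.3 and 43.9 CPM in SCI7 and between 27.6 and 36.0 CPM (median 30.6) after ovariectomy (log2 fold change -0.48, SE 0.09, edgeR adjusted p = 0.00691), and its value under the offset was 0.02. Igfbp4, a binding protein of insulin-like growth factors, was at 76.2, 73.7, 38.7 and 90.5 CPM in SCI7 and between 91.4 and 266 CPM (median 147) after ovariectomy (log2 fold change 1.11, SE 0.29, edgeR adjusted p = 0.0143). Without OVX2_SCI7 replicate 1, 3 of the list rose and 2 fell.

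Of 11 other hormone receptors the thyroid receptor Thra rose and the glucocorticoid receptor Nr3c1 and the growth hormone receptor Ghr fell, counts below or near the 16% higher and 16.9% lower among all genes. Thra stood at -0.22 under the offset. A receptor rose without OVX2_SCI7 replicate 1 or 3 or OVX8_SCI7 replicate 4 and none rose without any other single library, while 7 fell without OVX2_SCI7 replicate 1 and 4 without SCI7 replicate 4. Nr3c1 was at 153, 172, 132 and 138 CPM in SCI7 and between 80.5 and 122 CPM (median 93.5) after ovariectomy (log2 fold change -0.61, SE 0.13, edgeR adjusted p = 0.00774), without overlap, and stood at -0.01 under the offset. Of 12 glucocorticoid-responsive genes 7 rose (Fkbp5, Per1, Zbtb16, Mt1, Mt2, Cdkn1a and Ddit4) and none fell, with a median of 0.56 and of 0.11 under the offset, beside 16% called higher among all genes. The count was 3 without SCI7 replicate 2 and 4 without SCI7 replicate 3. Zbtb16, a zinc finger transcription factor, was at 5.01, 10.6, 9.15 and 9.73 CPM in SCI7 and between 18.7 and 40.9 CPM (median 23.9) after ovariectomy. Its nearest libraries were 1.77-fold apart, and it rose by a log2 fold change of 1.67 (SE 0.25, edgeR adjusted p = 0.00679), with 1.64 and 1.69 for OVX2_SCI7 and OVX8_SCI7 and 1.39 under the offset (edgeR adjusted p = 0.0596). Of 10 heat shock genes and chaperones Hspa1a, Hspa1b, Hspb1, Bag3 and Cryab rose and the mitochondrial chaperonin Hspd1 fell, with a median of 0.45 and of 0.06 under the offset, beside 16% higher and 16.9% lower among all genes. That count was 3 higher and none lower without SCI7 replicate 1, and 2 higher and none lower without SCI7 replicate 2.

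The remaining higher genes named for their fold change or gap belong to no listed group. Clec3b, the plasminogen-binding lectin tetranectin, was at 6.12, 6.81, 5.34 and 3.63 CPM in SCI7 and between 8.84 and 28.2 CPM (median 18.4) after ovariectomy (log2 fold change 1.72, SE 0.29, edgeR adjusted p = 0.00679). Ndor1, a flavin oxidoreductase of iron-sulphur cluster assembly that has 3 entries in the table, was at 1.11, 3.70, 1.85 and 2.52 CPM in SCI7 and between 4.50 and 9.13 CPM (median 7.54) after ovariectomy (log2 fold change 1.65, SE 0.29). Zfp771, a zinc finger gene with a GC content of 68.7%, was at 9.92, 8.42, 7.68 and 9.18 CPM in SCI7 and between 11.2 and 41.5 CPM (median 29.5) after ovariectomy (log2 fold change 1.65, SE 0.30). None of these overlapped, and under the offset they stood at 0.85, 1.16 and 0.58. Plekhf1, an endosomal lipid-binding protein, had a smaller but even change, from 16.4, 17.1, 13.3 and 17.04 CPM in SCI7 to between 24 and 34.1 CPM (median 25.2) after ovariectomy (log2 fold change 0.71, SE 0.12, edgeR adjusted p = 0.00679).

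**Figure D4:**
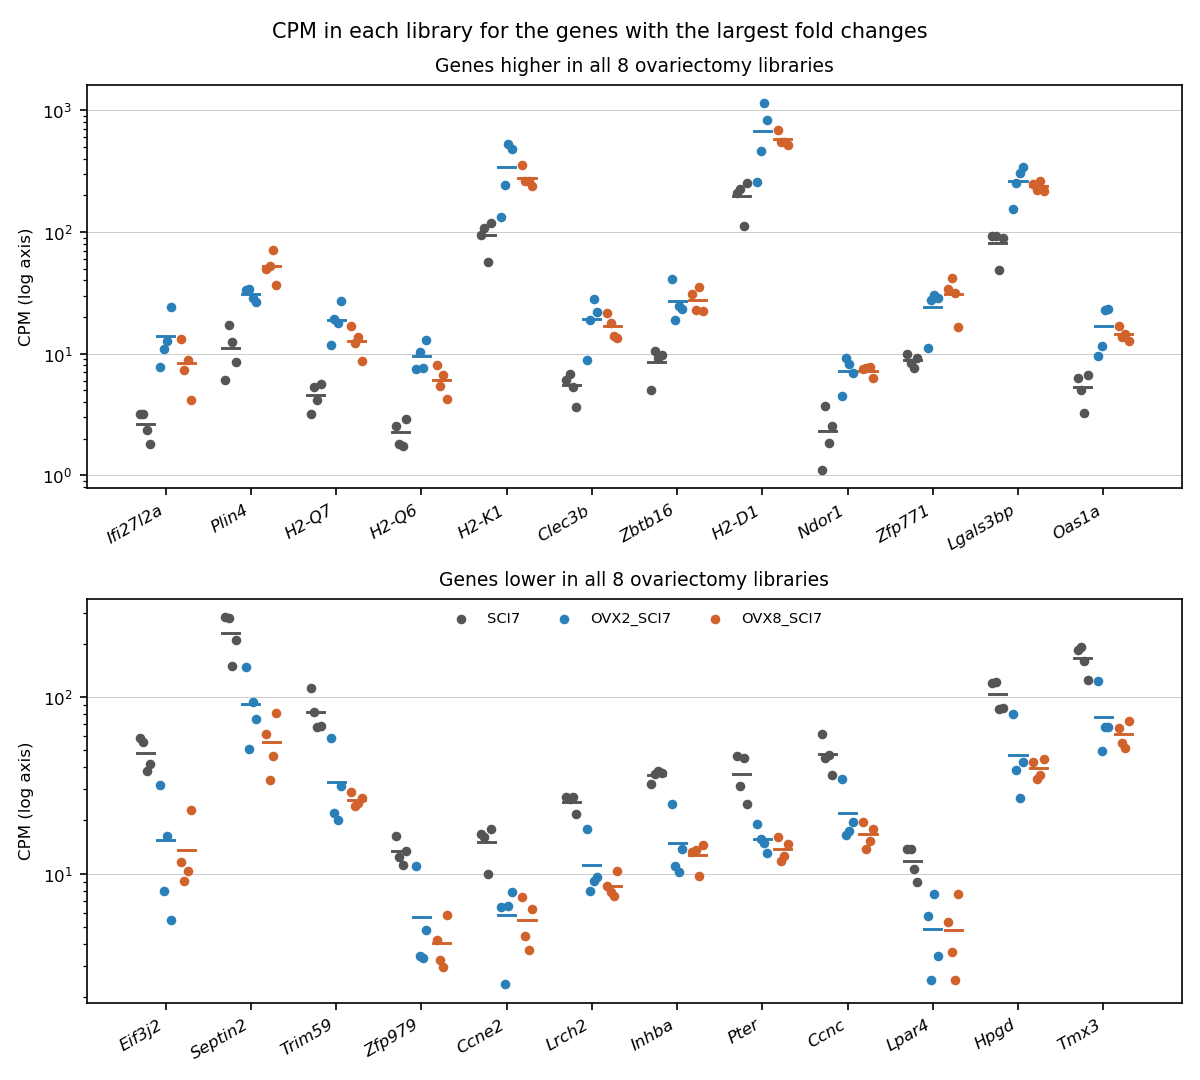
CPM (log axis) in each library for the 12 genes with the largest fold change in each direction among those called, separated and at a mean of at least 5 CPM, with group means as bars. Every ovariectomy point lies beyond every SCI7 point, and in 10 of the 12 lower genes the ovariectomy point nearest to SCI7 is OVX2_SCI7 replicate 1.

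Of the called and separated lower genes that averaged 5 CPM or more, predicted genes and pseudogenes aside, Eif3j2, a subunit of a translation initiation factor, had the largest change, from 58.8, 55.4, 38.1 and 41.8 CPM in SCI7 to between 5.49 and 31.9 CPM (median 11) after ovariectomy (log2 fold change -1.75, SE 0.38, edgeR adjusted p = 0.00805). Its near-identical copy Eif3j1 makes the counts uncertain. Septin2, a filament-forming GTPase with 2 entries in the table, was at 284, 279, 149 and 210.2 CPM in SCI7 and between 33.8 and 148 CPM (median 68.4) after ovariectomy (log2 fold change -1.64, SE 0.32, edgeR adjusted p = 0.00712). Its sides came within 1.01-fold of each other. Both stood lower under the offset too, at -1.09 and -1.05, without being called there.

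Inhba, which encodes the subunit of activin A, a ligand of the TGF-beta family made by injured tissue, was at 32.3, 36.5, 38.1 and 37.1 CPM in SCI7 and between 9.73 and 24.8 CPM (median 13.5) after ovariectomy. The highest of the 8 was OVX2_SCI7 replicate 1, and the nearest libraries were 1.3-fold apart. Inhba fell by 1.38 on the log2 scale (SE 0.21, edgeR adjusted p = 0.00679), with -1.27 for OVX2_SCI7 and -1.49 for OVX8_SCI7, and was called under the offset as well, at -0.75 (edgeR adjusted p = 0.0467). Of 12 other TGF-beta pathway genes Smad7 rose and Tgfb2 and Smad2 fell, no more than the 16% and 16.9% among all genes. Without OVX2_SCI7 replicate 1, 4 of them rose and 2 fell.

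Ccne2, the cyclin E2 of entry into DNA synthesis, was at 16.7, 16.1, 9.91 and 17.8 CPM in SCI7 and between 2.36 and 7.82 CPM (median 6.39) after ovariectomy (log2 fold change -1.43, SE 0.28, edgeR adjusted p = 0.00693). Of 16 cell division genes edgeR called 0, with 0 at an unadjusted p below 0.05, 0 by DESeq2 and limma-voom and 2 with quality weights. Without SCI7 replicate 3, 2 of them fell. Hpgd, the enzyme that inactivates prostaglandins, was at 121, 122, 85.9 and 86.7 CPM in SCI7 and between 26.7 and 80.2 CPM (median 40.6) after ovariectomy (log2 fold change -1.26, SE 0.23, edgeR adjusted p = 0.00679). Calcrl, the receptor of adrenomedullin and calcitonin gene-related peptide, was at 51.2, 57.6, 39.8 and 47.9 CPM in SCI7 and between 15.2 and 29.4 CPM (median 21.9) after ovariectomy (log2 fold change -1.16, SE 0.17, edgeR adjusted p = 0.00679). Under the offset these genes stood at -0.40, -0.63 and -0.21, and none was called.

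The widest gap among lower genes under the same limits was that of Acsl4, which loads polyunsaturated fatty acids onto coenzyme A. It was at 66.2, 63.0, 61.9 and 62.7 CPM in SCI7 and between 25.6 and 42.2 CPM (median 33.1) after ovariectomy, 1.47-fold apart at the nearest libraries (log2 fold change -0.95, SE 0.13, edgeR adjusted p = 0.00679), and at -0.10 under the offset. Trim59, Zfp979, Lrch2, Pter, Ccnc, Lpar4 and Tmx3 also fell by 1.26 to 1.48 on the log2 scale, and Marchf7, Tmx1, Phf6, Hectd2, N4bp2l2 and Myef2 by 0.78 to 1.09, all without overlap. Among these Lpar4, a receptor of lysophosphatidic acid, and N4bp2l2 had positive values under the offset, 0.04 and 0.30. The GC content of the transcripts in this paragraph ran from 33.7% to 42.6%.

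Genes that were called in the same direction with and without the offset, and separated on both scales, numbered 12 upward and 10 downward, counting pseudogenes and unnamed entries. The named ones at 5 CPM or more were Oas1a, Lgals3bp, Ifi27, Zkscan14, Tmco3 and Supt4a upward and Inhba, Tcea1, Map4k5 and Papss2 downward. Zkscan14, a zinc finger gene, was at 4.22, 2.36, 3.49 and 2.67 CPM in SCI7 and between 5.14 and 6.80 CPM (median 5.76) after ovariectomy (log2 fold change 0.91, SE 0.18, edgeR adjusted p = 0.00712, and 0.96 under the offset). Supt4a, a subunit of a transcription elongation complex, was at 12.9, 11.2, 10.3 and 11.8 CPM in SCI7 and between 13.3 and 28.3 CPM (median 17.0) after ovariectomy (log2 fold change 0.76, SE 0.21, edgeR adjusted p = 0.0191, and 0.48 under the offset). Tmco3 rose by a log2 fold change of 0.33 (edgeR adjusted p = 0.0303), with nearest libraries 1.01-fold apart.

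Tcea1, a factor that restarts stalled RNA polymerase, was at 199, 167, 148 and 118 CPM in SCI7 and between 57.1 and 107 CPM (median 69.7) after ovariectomy (log2 fold change -1.13, SE 0.17, edgeR adjusted p = 0.00679, and -0.55 under the offset). Papss2, which makes the sulphate donor used for proteoglycans, was at 82.2, 79.9, 65.8 and 79.6 CPM in SCI7 and between 36.2 and 56.4 CPM (median 42.9) after ovariectomy (log2 fold change -0.80, SE 0.13, edgeR adjusted p = 0.00679, and -0.50 under the offset). Map4k5, a stress-pathway kinase, fell by 0.86 and stood at -0.53 under the offset.

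Groups of housekeeping genes were called in opposite directions. Of 13 mitochondrially encoded transcripts, with a median GC content of 37.1%, 10 fell and none rose. Called lower were 16.9% of all genes and 63.1% of those in the GC bin that holds this GC content. The list's median was -1.19, and -0.29 under the offset. The count was 2 without SCI7 replicate 1 and 4 without SCI7 replicate 2 or 3. It was 5 without OVX2_SCI7 replicate 4 or OVX8_SCI7 replicate 1 or 3, and 6 without OVX2_SCI7 replicate 2 or OVX8_SCI7 replicate 2. The transcript mt-Nd1, a subunit of complex I, was at 8601, 5897, 7006 and 3899.9 CPM in SCI7 and between 1722 and 6603 CPM (median 2221) after ovariectomy, and OVX2_SCI7 replicate 1 was the highest of the 8 (log2 fold change -1.26, SE 0.35, edgeR adjusted p = 0.0187).

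Of 24 cytosolic ribosomal protein genes, whose counts can be split with processed copies, 9 rose and only Rpl5 fell, with a median of 0.80 and of 0.28 under the offset, beside 16% called higher among all genes. That count was 16 without OVX2_SCI7 replicate 1, 5 without OVX2_SCI7 replicate 4 or OVX8_SCI7 replicate 1, and 3, 0 and 1 without SCI7 replicates 1, 2 and 3. Of 17 glycolysis genes, with a median GC content of 54.0%, 7 rose and none fell. Called higher were 16% of all genes and 28.1% of those in the GC bin that holds this GC content. The list's median was 0.40, and -0.07 under the offset. The count of 7 was 1 without SCI7 replicate 2, 3 without SCI7 replicate 1 or 3, OVX2_SCI7 replicate 2 or 4 or OVX8_SCI7 replicate 3, and 4 without OVX8_SCI7 replicate 1 or 2.

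The glial genes that define cord tissue were abundant in every library. Gfap, the intermediate filament of astrocytes, was at 5769.8, 5276.5, 4909 and 5267 CPM in SCI7 and between 3849.7 and 7923 CPM (median 6478) after ovariectomy (log2 fold change 0.23, SE 0.19, edgeR adjusted p = 0.363). Mbp, a structural protein of myelin, was at 11190, 8846, 9847 and 8993 CPM in SCI7 and between 7990 and 16962 CPM (median 12442) after ovariectomy (log2 fold change 0.37, SE 0.22, edgeR adjusted p = 0.205). Neither was called. Of 13 reactive astrocyte genes Aspg rose, and with 1 library left out 0 to 2 rose and 0 to 2 fell. Of 14 mature oligodendrocyte genes Mag rose and Aspa, Ugt8a and Ermn fell, and with 1 library left out 0 to 2 rose and 0 to 6 fell. Under the offset edgeR and DESeq2 each called 0 of these 14. Both lists' counts were below or near the 16% called higher and 16.9% called lower among all genes. Of 15 fibroblast and collagen genes edgeR called 0, with 1 at an unadjusted p below 0.05, 1 by DESeq2, 0 by limma-voom and 3 with quality weights. Their median was 0.84, and their sum was 3806 to 12342 CPM in SCI7 and 3389 to 40163 CPM after ovariectomy. Without OVX2_SCI7 replicate 1, 3 of them rose.

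Transcripts of tissue beside the cord varied widely between libraries. Of 10 dorsal root ganglion markers edgeR called 0, with 0 at an unadjusted p below 0.05 and 0 by DESeq2 and limma-voom with or without quality weights. Their sum was 3.18 to 70.0 CPM in SCI7 and 4.09 to 498 CPM after ovariectomy, highest in OVX2_SCI7 replicate 2. Of 12 skeletal muscle markers edgeR called 0, with 2 at an unadjusted p below 0.05, 2 by DESeq2, 0 by limma-voom and 2 with quality weights. Without OVX2_SCI7 replicate 1 or 2, 2 and 1 of them rose. Their sums were 17.2 to 50.05 CPM and 27.1 to 121 CPM.

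**Figure D5:**
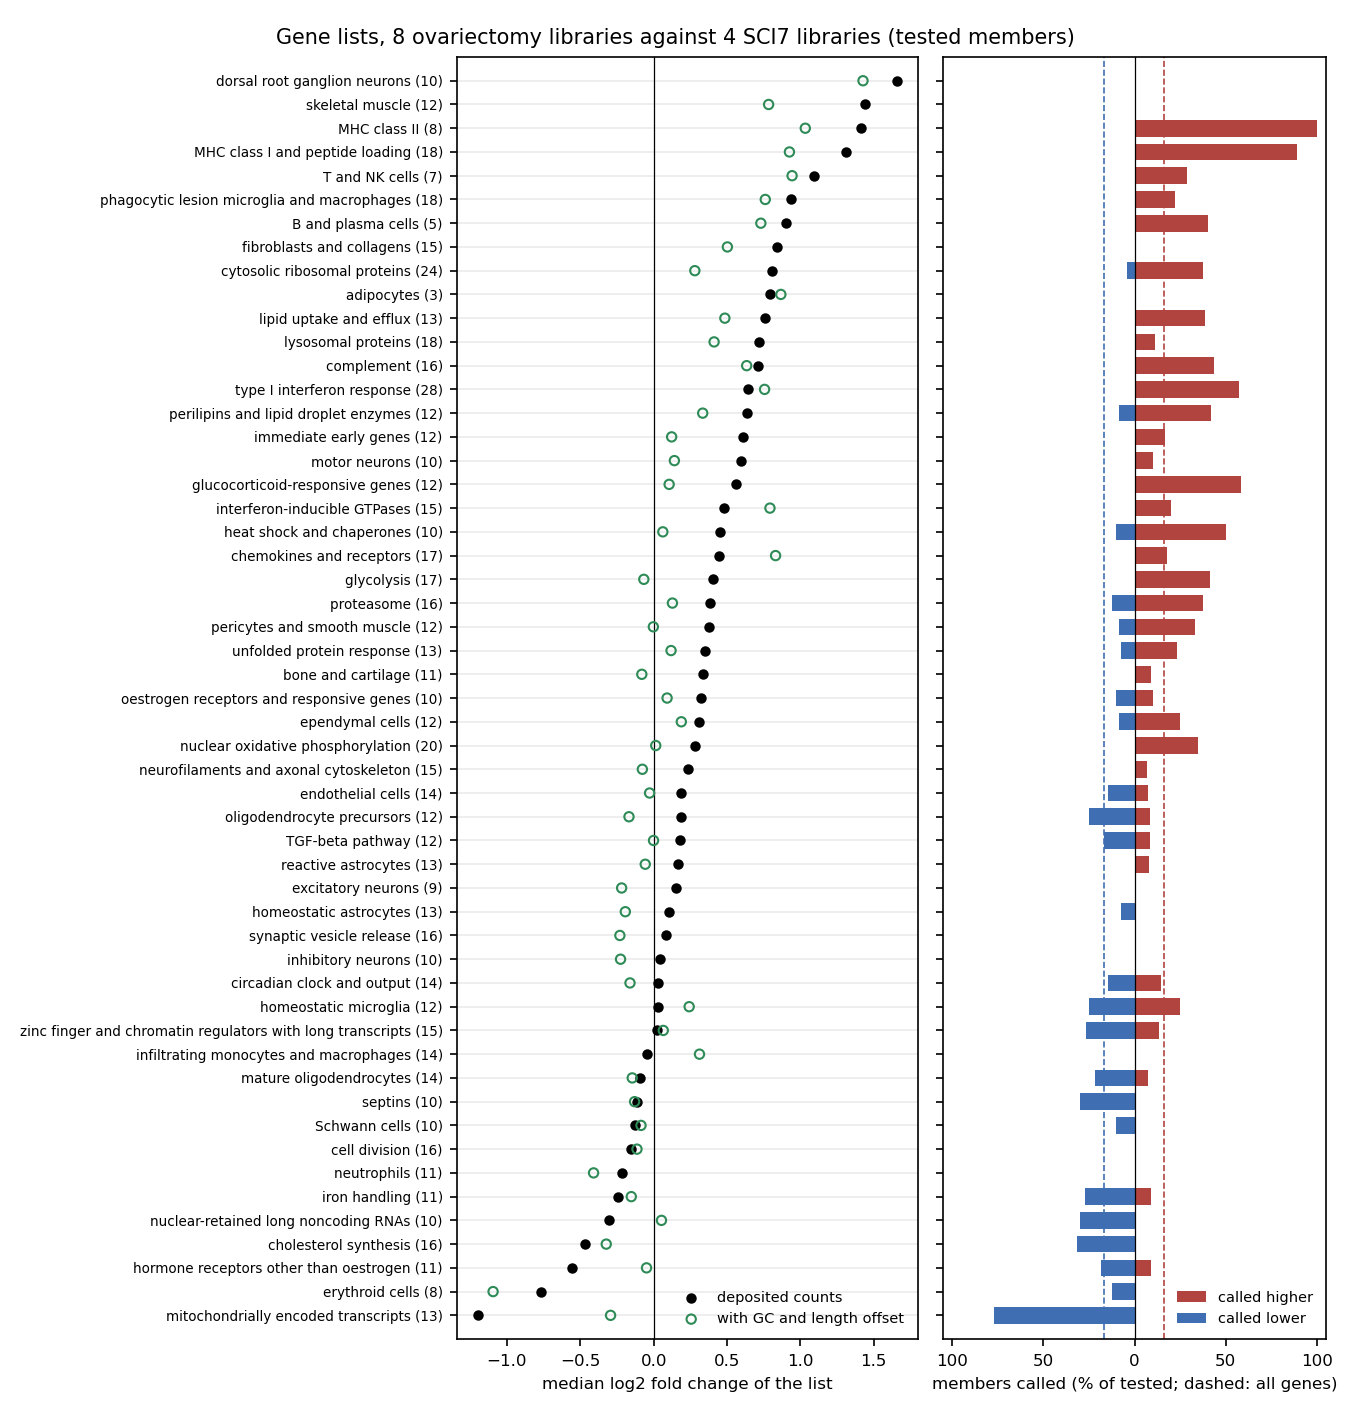
For 53 gene lists (rows, with the number tested), left, the median log2 fold change in deposited counts (black) and with the GC and length offset (green rings); right, the percent of members called higher (red) and lower (blue), with dashed lines at 16% and 16.9%, the shares among all genes. Class II and class I genes reach the highest shares called higher, and the rings of mitochondrial, glucocorticoid and glycolysis lists lie closer to 0 than their black points.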

How the data were processed

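Per the submitters' processing notes, the tools were fastp 0.23.4, HISAT2 2.2.1, RSEM 1.3.3, DESeq2 1.42.0, edgeR and limma, on genome build GRCm39. The authors deposited expected counts, estimated counts from RSEM that need not be whole, and TPM, a level scaled for transcript length and depth, used only as an alternative. The 9 columns of means in the 3 deposited tables were not used. The library kit, and whether counting used strand, are not stated.

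Expected counts were rounded to whole numbers, filtered with filterByExpr over the 3 groups and scaled by TMM in edgeR 4.0.16 (R 4.3.3). Ovariectomy against injury alone was the only term, fitted over 12 libraries with the robust quasi-likelihood F-test and Benjamini-Hochberg adjustment over 17820 genes at 0.05 (common biological coefficient of variation 0.309). A fit with 3 groups gave the values per interval. For the offset, the log2 deviation of each library was fitted by natural splines with 5 degrees of freedom in GC content and in log length, over genes of at least 5 CPM, with lengths from the GENCODE M21 transcripts of an older build. The test was also run on simulated counts with known changes, with and without a GC trend. The outcome is not reported here. The 525 genes without a symbol stayed in library sizes and tests.

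The genes named were, among called and separated genes at a mean of at least 5 CPM, the 12 with the largest fold change and the 8 with the widest gap in each direction, up to 10 called and separated with and without the offset, and up to 4 members of each list with the smallest p; pseudogenes, predicted genes and entries without a symbol were passed over. The comparison, its members and the 53 lists were chosen with earlier results of these data known. Alternatives were other scalings, filters and tests (DESeq2 1.42.0, limma 3.58.1, limma-trend on log2(TPM + 1)), the replicate number as a block, the offset alone, with the block and with DESeq2, and leaving out libraries. No 2 libraries of a group agreed within sampling noise (chi-square per gene at least 13.1).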

Additional observations from a re-analysis of the deposited data

Results flagged for a closer look

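Over 240 groups of libraries, each a gene or library measure on 1 side, 37 held a library that stood far from the others of its side. For independent groups chance alone gives about 1 in 20. These groups were not independent, because the same 12 libraries entered every gene and most genes were picked from these results. OVX2_SCI7 replicate 1 was that library 21 times.

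OVX2_SCI7 replicate 1 was the highest of the 8 ovariectomy libraries for Trim59 (58.3 CPM), Zfp979 (11.02 CPM), Lrch2 (17.9 CPM), Inhba (24.8 CPM), Ccnc (34.4 CPM), Hpgd (80.2 CPM), Tmx3 (122.7 CPM), Phf6 (30.3 CPM) and Myef2 (68.7 CPM). It was also the highest for Tcea1 (107 CPM), Map4k5 (74.7 CPM), Idi1 (111 CPM), P2ry12 (67.7 CPM), mt-Atp8 (176.9 CPM), mt-Nd6 (1094 CPM), mt-Nd1 (6603 CPM) and Prlr (10.27 CPM). Its shares of mitochondrial counts (8.33%) and of pseudogene counts (2.79%) stood above those of the other 7. For Axl (167.2 CPM) and Selplg (66 CPM) it was the lowest.

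OVX2_SCI7 replicate 4 was the highest ovariectomy library for Ifi27l2a (24.08 CPM), Igtp (48.15 CPM), Cst7 (30.55 CPM) and Hspa1b (23.14 CPM), and OVX2_SCI7 replicate 3 for Plekhf1 (34.05 CPM), Cd4 (7.07 CPM), Ddit4 (153.5 CPM) and Igfbp4 (265.7 CPM). The total count of OVX8_SCI7 replicate 2, 31781695, was above those of the other ovariectomy libraries.

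Within SCI7, replicate 3 was the lowest for Lgals3bp (49.12 CPM), Papss2 (65.8 CPM), H2-Ab1 (3.65 CPM), Cd74 (11.82 CPM) and Cxcl16 (11.49 CPM). SCI7 replicate 4 was the lowest for Lrch2 (21.63 CPM) and the highest for Pfkl (90.3 CPM).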

How the results depend on the processing

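Under the 9 alternatives of scaling, filter, model, test and block that keep all libraries and use no offset, the count of called genes was 4112 to 11058 beside 5870, and beyond 1.5 times it only with limma-voom with quality weights (11058). Called and separated genes numbered 1685, or 35 with the offset, 391 with the offset in DESeq2 and 6210 without OVX2_SCI7 replicates 1 and 2. Called genes numbered 36 with the offset (63.9% of them higher, beside 48.6% without it), 992 with the offset in DESeq2 and 9021 without those replicates. Leaving out each library in turn gave 2732 (without SCI7 replicate 2) to 8474 (without OVX2_SCI7 replicate 1) called genes and 1380 to 5056 called and separated genes, with 2770 without SCI7 replicate 4. Between the intervals 0 genes were called, beside 6 with DESeq2, 1 with quality weights, 9 with the offset in DESeq2 and 0 to 1 with a library left out.

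Of 102 called genes among the 114 examined one by one, 12 stayed called with the offset, 85 did not and 5 changed sign. With the offset in DESeq2 49 stayed called, on log2(TPM + 1) 81 did, and with a library left out 74 to 102 did. Signs changed with the offset for Lpar4 (0.041), N4bp2l2 (0.30), Nrip1 (0.021), Thra (-0.22) and Aldoa (-0.086), and for Esr1 (0.075) and Gfap (-0.22), which were not called. With the offset in DESeq2 these values were 0.037, 0.30, 0.015, -0.22, -0.092, 0.066 and -0.22. Tmco3 stood at -0.077 on log2(TPM + 1). The causes were not tested.

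Deviations of the 12 same-numbered pairs of libraries correlated at -0.626 to 0.50, over 0.1 in 5. Those of the 36 differently numbered pairs correlated at -0.610 to 0.596. Such wide ranges cannot decide whether the replicate number pairs the libraries. With the number as a block 4879 genes were called, 1610 of them separated, and 0 between the intervals. With block and offset 0 genes were called or called and separated, and the signs of Lpar4 (0.0088), N4bp2l2 (0.30), Nrip1 (0.017), Thra (-0.22), Aldoa (-0.090), Esr1 (0.10) and Gfap (-0.24) were those with the offset alone. Depth limits the genes at a few counts, such as Esr2 at 0 to 10 counts per library.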
